A study of Mus musculus and Homo sapiens with 14 samples.

Results

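Imprinted genes are expressed mainly from the chromosome inherited from 1 parent, and the 38 mouse genes described here are imprinted genes that lie outside the cluster around Peg10 on chromosome 6. They were chosen by symbol and not by a cutoff on a measured value, with earlier results of these data known. All 38 were listed among the 50559 entries of the EL4 tumour table, and 37 were listed among the 55969 entries of the EG7-OVA table, in which Zrsr1 was not found under that symbol. By textbook knowledge 19 of them are normally read from the paternal allele and 11 from the maternal allele, and for 8 the allele depends on the tissue or the transcript. They fall into 16 domains.

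The choice between the parental copies is set in the germ line by DNA methylation at imprinting control regions. That methylation is copied at each cell division by the maintenance methyltransferase DNMT1, and it is guarded in the early embryo by zinc finger proteins such as ZFP57. In several domains the unmethylated copy of the control region drives a long non-coding RNA, such as Kcnq1ot1 or Airn, which silences neighbouring genes on the same chromosome in cis. Many imprinted genes act in fetal and placental growth and are read at low levels in adult blood cells. Azacytidine and decitabine are cytidine analogues that trap DNA methyltransferases on newly made DNA, so that methylation is lost as cells divide. Decitabine is the deoxyribose form, while azacytidine carries a ribose and also enters RNA.

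The series used the mouse T cell lymphoma line EL4, grown as tumours, and EG7-OVA, an EL4 derivative that carries the ovalbumin gene. The EL4 tumour libraries are labelled P3 or P0, and the labels do not say what these names stand for, which host carried the tumours or whether animals were pooled. EG7-OVA cells were given azacytidine at 1.5 µM, decitabine at 0.2 µM or the vehicle DMSO at 0, 24 and 48 h and were harvested at 72 h. Every group is labelled wild type and holds 2 libraries. Nothing in the labels says that the libraries of a group came from separate cultures or animals, so p-values measure only the spread between these libraries, which may be technical. Total counts were 21621580 to 25328708 per EL4 library and 15690747 to 21048979 per EG7-OVA library, and each value in CPM is a count scaled to a TMM-adjusted library size of 1000000. T cell markers were present in both sets, with summed levels of 4300.0 to 4494 CPM in the EL4 tumours and 3480.0 to 4461 CPM in EG7-OVA cells, although Trbc1 and Trbc2 were listed at 0 in every EL4 tumour library. In bulk RNA, fewer cells of a type and less RNA per cell cannot be told apart.

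The promoters of 5 members are printed beside the drug results, and whether these sequences bear on those results was not tested. Plagl1, Meg3 and Peg3 were close to 0 or at 0 in vehicle-treated cells and were higher with drug. Slc22a18 was low and was higher with drug, and Kcnq1ot1 had many reads in every library. Each is the window from 250 bases before to 50 bases after a RefSeq gene start on GRCm38.p6, 5′ to 3′ on the gene's strand, with CG dinucleotides, the target of DNA methylation, in capitals. The windows lie at chr10:13090582-13090881 on the plus strand for Plagl1, chr12:109540746-109541045 on the plus strand for Meg3, chr7:6730370-6730669 on the minus strand for Peg3, chr7:143473539-143473838 on the plus strand for Slc22a18 and chr7:143296498-143296797 on the minus strand for Kcnq1ot1.
Plagl1: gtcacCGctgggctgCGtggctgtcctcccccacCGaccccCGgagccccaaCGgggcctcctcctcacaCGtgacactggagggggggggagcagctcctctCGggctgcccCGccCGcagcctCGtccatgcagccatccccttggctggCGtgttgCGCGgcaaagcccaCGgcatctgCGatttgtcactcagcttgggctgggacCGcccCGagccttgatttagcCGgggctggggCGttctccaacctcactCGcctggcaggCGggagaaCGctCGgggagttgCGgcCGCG
Meg3: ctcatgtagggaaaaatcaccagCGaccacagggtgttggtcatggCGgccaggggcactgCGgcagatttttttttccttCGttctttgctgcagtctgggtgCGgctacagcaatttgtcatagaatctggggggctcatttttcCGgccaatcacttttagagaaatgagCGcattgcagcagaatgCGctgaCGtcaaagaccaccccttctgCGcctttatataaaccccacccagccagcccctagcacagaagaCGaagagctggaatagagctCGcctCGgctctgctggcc
Peg3: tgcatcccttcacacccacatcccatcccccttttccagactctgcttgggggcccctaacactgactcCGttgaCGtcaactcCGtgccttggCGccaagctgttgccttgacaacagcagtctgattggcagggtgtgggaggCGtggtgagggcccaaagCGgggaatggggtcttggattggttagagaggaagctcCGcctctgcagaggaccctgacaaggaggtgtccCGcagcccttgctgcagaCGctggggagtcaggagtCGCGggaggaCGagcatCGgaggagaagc
Slc22a18: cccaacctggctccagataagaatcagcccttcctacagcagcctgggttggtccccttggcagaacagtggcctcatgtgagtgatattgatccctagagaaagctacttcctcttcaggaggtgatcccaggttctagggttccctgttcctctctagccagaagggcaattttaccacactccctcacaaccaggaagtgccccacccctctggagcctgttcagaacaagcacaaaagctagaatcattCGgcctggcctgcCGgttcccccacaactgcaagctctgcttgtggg
Kcnq1ot1: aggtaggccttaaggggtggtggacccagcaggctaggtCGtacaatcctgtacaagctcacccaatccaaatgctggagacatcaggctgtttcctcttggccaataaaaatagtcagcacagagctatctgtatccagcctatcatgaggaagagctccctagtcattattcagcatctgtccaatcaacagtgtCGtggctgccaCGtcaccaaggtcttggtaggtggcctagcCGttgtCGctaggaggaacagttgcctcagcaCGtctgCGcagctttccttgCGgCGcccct

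These windows differ in their CG content. Plagl1 holds 26 CG dinucleotides in 300 bases, Meg3 and Peg3 hold 13 each, Kcnq1ot1 holds 9 and Slc22a18 holds 2, beside a median of 7 over all 32851 RefSeq mouse windows. RefSeq windows were matched for 33 of the members, and Cdkn1c, H19, Impact, Kcnq1 and Rtl1 have none here. The hexamer TGCCGC, the core of the ZFP57 recognition sequence, was searched on both strands and was found in the Plagl1 and Meg3 windows and not in the other windows printed. Of the 50 member windows 12 hold it (24.0%), against 11.6% of all windows of that length, and a match of letters is not a measured binding site. The hexamer itself holds a CG, and the member windows had a median of 13 CG dinucleotides, against 7 over all windows. The 12 windows belong to 11 members, since 2 Mest windows with the hexamer nearly coincide. The shares were not adjusted for either point. Among the first windows of the members that passed the test with azacytidine the CG count ran from 0 in Rian to 26 in Plagl1 and Phlda2, with a median of 13 over 7 windows. Among the members tested that did not pass, it ran from 2 to 45, with a median of 18 over 15 windows.

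In EG7-OVA cells both drugs were accompanied by higher levels of a subset of the imprinted genes, and no member passed the threshold in the lower direction. With azacytidine 10 of the 26 members tested rose, none fell and 16 did not pass, where 13.6% of all 19123 genes tested were higher and 6.7% were lower (edgeR quasi-likelihood test, Benjamini-Hochberg adjusted p under 0.05). With decitabine 10 rose, none fell and 16 did not pass, where 12.4% of all genes tested were higher and 4.3% were lower. That count was 6 without DMSO replicate 2. The 8 members that rose with both drugs were Plagl1, Cdkn1c, H19, Meg3, Peg3, Kcnq1, Slc22a18 and H13. Rian and Phlda2 rose with azacytidine, and Impact and Ddc rose with decitabine. Both comparisons use the same 2 DMSO libraries and are given side by side for that reason.

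Split by the allele normally read, the members that rose with azacytidine were 7 of 9 tested maternal genes, 2 of 9 tested paternal genes and 1 of 8 genes of the tissue-dependent class. With decitabine they were 5 of 9, 3 of 9 and 2 of 8 in the same classes. Of the maternal genes that rose with azacytidine, Cdkn1c, Kcnq1, Phlda2 and Slc22a18 lie in the Kcnq1 domain. Meg3 and Rian lie in the Dlk1-Meg3 domain. Genes of a domain may move together, so these counts are not of independent genes. The median log2 fold change of the members tested was 0.63 with azacytidine and 0.84 with decitabine, and it was 0.033 and 0.036 over all genes tested. These medians were the same to that precision with the 3 members without a DMSO read set at their bound. Low genes limit what these counts can say. Of the 10 members that rose with azacytidine, 8 had fewer than 10 reads in a DMSO library, and such a gene enters the test only because treated libraries are high. The tables hold no allele-specific reads, so which parental copy was read was not measured.

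**Figure D1:**
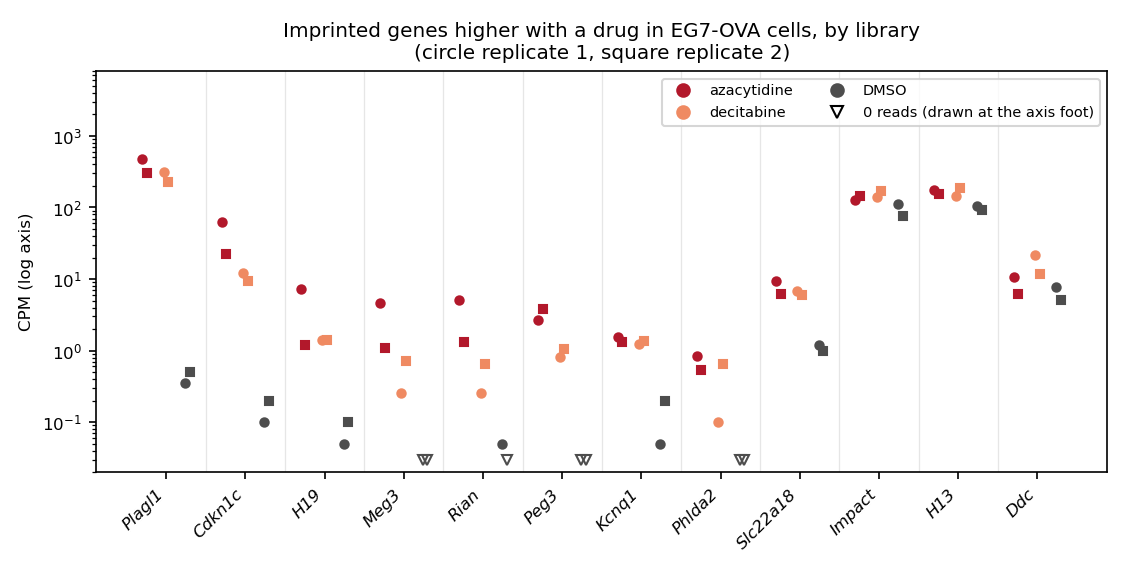
CPM on a log axis in each EG7-OVA library for the 12 members that passed the test with at least 1 drug, with azacytidine, decitabine and DMSO from left to right and each point 1 library. Plagl1 lies between 229 and 478 CPM in the 4 drug libraries and at or below 0.498 CPM in the DMSO libraries, while Impact and H13 were at or above 74.9 CPM in DMSO.

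Plagl1, a zinc finger transcription factor that restrains cell proliferation and regulates other imprinted genes, changed most among the members with reads in every DMSO library. It lies on chr10:13060504-13131694 on the plus strand (mm10). Its level was 478 and 303 CPM in azacytidine libraries, 317 and 229 CPM in decitabine libraries and 0.352 and 0.498 CPM in DMSO libraries. Its read counts were 7313 and 5077 with azacytidine, 6219 and 4182 with decitabine and 7 and 10 with DMSO. The groups were far apart, and no drug library came near a DMSO library. The log2 fold change was 9.82 ± 0.40 (SE, 95% interval 8.94 to 10.7, edgeR adjusted p = 1.49e-06) with azacytidine and 9.30 ± 0.39 (8.43 to 10.2, adjusted p = 2.14e-06) with decitabine. Per kilobase of annotated exon Plagl1 stood at rank 20 among the 37 listed members in DMSO cells, with 0.0544 CPM per kb, and at rank 3 with either drug, with 49.9 CPM per kb with azacytidine and 34.9 CPM per kb with decitabine. Its CG-rich promoter window is the first of those printed above.

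In the Kcnq1 domain of distal chromosome 7 some of the protein-coding genes rose. The maternal genes Cdkn1c, Kcnq1 and Slc22a18 rose with both drugs, whereas the paternal antisense RNA Kcnq1ot1, which silences them in cis on the paternal chromosome, did not pass the test with either, and nor did the protein-coding members Ascl2 and Tssc4. Cdkn1c encodes the cyclin-dependent kinase inhibitor p57Kip2 and lies at chr7:143458339-143461050 on the minus strand (mm10). It had 62.9 and 22.4 CPM with azacytidine, 12.3 and 9.51 CPM with decitabine and 0.101 and 0.199 CPM with DMSO. All 4 drug libraries lay well above both DMSO libraries, and the azacytidine libraries lay above the decitabine libraries. The log2 fold change of Cdkn1c was 8.08 ± 0.65 with azacytidine (edgeR adjusted p = 4.9e-05) and 6.12 ± 0.64 with decitabine (adjusted p = 0.000272).

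Slc22a18, a transporter of the organic cation family next to Cdkn1c, had 9.54 and 6.14 CPM with azacytidine, 6.73 and 6.07 CPM with decitabine and 1.21 and 0.997 CPM with DMSO. Its log2 fold change was 2.82 ± 0.39 with azacytidine (edgeR adjusted p = 0.000908) and 2.53 ± 0.38 with decitabine (adjusted p = 0.00193). The drug groups did not overlap the DMSO group, and the promoter window of the gene holds 2 CG dinucleotides. Kcnq1, a voltage-gated potassium channel, had 24 and 22 reads with azacytidine, 24 and 25 with decitabine and 1 and 4 with DMSO. Its log2 fold change was 3.45 ± 0.67 with azacytidine (edgeR adjusted p = 0.00558) and 3.30 ± 0.67 with decitabine (adjusted p = 0.00831). Kcnq1ot1 lies inside Kcnq1 on the other strand, and whether the authors counted by strand is not given, so the values of this pair are uncertain.

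Phlda2, a pleckstrin homology-like protein that restrains placental growth, had 13 and 9 reads with azacytidine, 2 and 12 reads with decitabine and none in either DMSO library. It was at least 9.13-fold higher with azacytidine and at least 4.92-fold higher with decitabine, taking 3 reads over the DMSO group as the floor. Phlda2 passed with azacytidine (edgeR adjusted p = 0.0225) and not with decitabine (adjusted p = 0.0579), and without any 1 of the DMSO or azacytidine libraries its adjusted p with azacytidine was 0.0539 to 0.136. Ascl2, a transcription factor of the trophoblast at the other end of the domain, had 10 and 3 reads with azacytidine, 9 and 10 with decitabine and 6 and 4 with DMSO, and did not pass with either drug (adjusted p = 0.61 and 0.464). Tssc4, which sits between them and is maternal in placenta, had 45.4 and 31.8 CPM with azacytidine, 26.1 and 32.5 CPM with decitabine and 45.5 and 32.7 CPM with DMSO, and did not pass (adjusted p = 0.969 and 0.288).

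Kcnq1ot1 itself was among the more abundant members in CPM, over 93.09 kb of annotated exon. Per kilobase it ranked 11 with DMSO and 12 with either drug among the 37 listed members, at 3.99 to 4.75 CPM per kb. It had 428 and 456 CPM with azacytidine, 431 and 385 CPM with decitabine and 329 and 414 CPM with DMSO. Its log2 fold change was 0.25 with azacytidine (95% interval -0.14 to 0.64, edgeR adjusted p = 0.36) and 0.14 with decitabine (-0.26 to 0.53, adjusted p = 0.669). These intervals leave out a change of the size seen for Cdkn1c, Kcnq1 or Slc22a18. Nap1l4 and Tspan32 are not members and lie in the same region. Nap1l4 had log2 fold changes of -0.13 and -0.18 with azacytidine and decitabine and Tspan32 had 0.45 and 0.51, and neither passed (edgeR adjusted p = 0.651 and 0.557 for Nap1l4, 0.0843 and 0.067 for Tspan32). Th, beyond Ascl2, is described with the other imprinted genes.

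**Figure D2:**
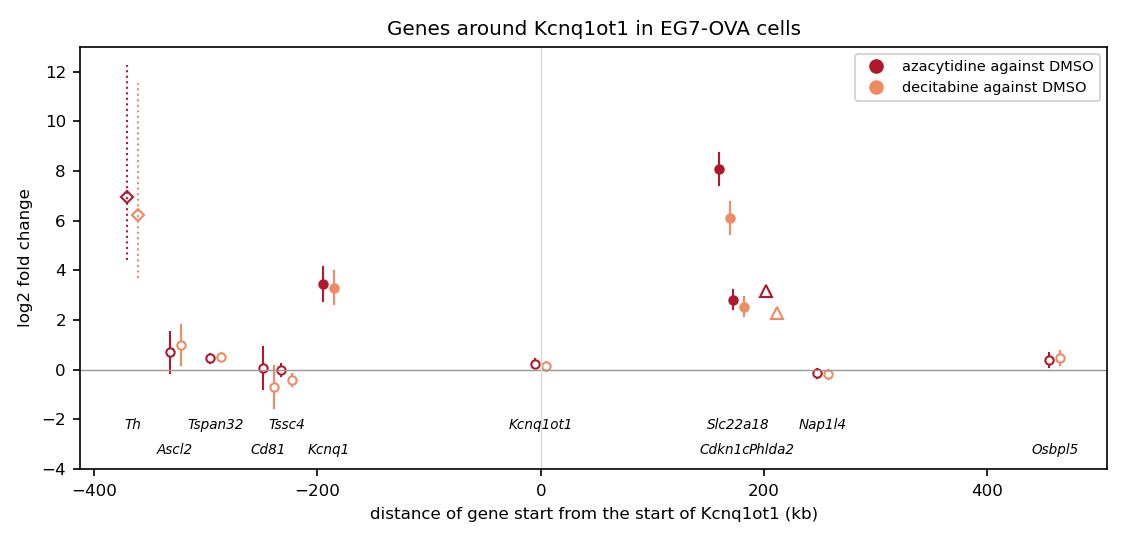
Log2 fold change against DMSO for the tested genes around Kcnq1ot1 by the distance of their start from that of Kcnq1ot1 in kb. Filled circles passed the edgeR test and open circles did not (bars, SE), triangles are lower bounds for Phlda2, which had no DMSO read, and diamonds with dotted bars are ratios with 95% counting intervals for Th, which had 1 DMSO read; Cdkn1c stands highest among the circles, Slc22a18 and Kcnq1 are near 3, and Kcnq1ot1 lies near 0.

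H19, the maternal long non-coding RNA at chr7:142575529-142578143 (mm10), rose with both drugs and was almost unread with DMSO. It had 111 and 20 reads with azacytidine, 28 and 26 with decitabine and 1 and 2 with DMSO. The ratio was 54.4 with azacytidine (exact 95% counting interval 18.2 to 267, edgeR adjusted p = 0.00282) and 19 with decitabine (6.15 to 94.9, adjusted p = 0.0177). The azacytidine libraries, at 7.25 and 1.19 CPM, lay on either side of both decitabine libraries, at 1.43 and 1.42 CPM. Without DMSO replicate 1 the decitabine call was lost (adjusted p = 0.0769). Igf2, the paternal growth factor that shares enhancers with H19, had 3 and 0 reads with azacytidine and none with decitabine or DMSO, and was too low to test. Gm49394 overlaps Igf2 on the same strand, and how shared reads were counted is not given, so the Igf2 counts are uncertain.

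In the Dlk1-Meg3 domain of chromosome 12, the maternal non-coding RNA Meg3 rose with both drugs and its neighbour Rian rose with azacytidine, while Mirg, Rtl1 and Dlk1 were too low to test. Meg3, at chr12:109541001-109571726, had 70 and 18 reads with azacytidine, 5 and 13 with decitabine and none with DMSO. It was at least 36.5-fold higher with azacytidine (edgeR adjusted p = 0.00334) and at least 6.32-fold higher with decitabine (adjusted p = 0.0379). Rian, the host RNA of many small nucleolar RNAs downstream of Meg3, had 78 and 22 reads with azacytidine, 5 and 12 with decitabine and 1 and 0 with DMSO. The Rian ratio was 125 with azacytidine (exact 95% counting interval 21.8 to 4970, adjusted p = 0.00251) and 17.9 with decitabine (2.81 to 749, adjusted p = 0.0639). Within each drug, the library with more Meg3 reads also had more Rian reads, and both genes had more reads in each azacytidine library than in any decitabine library.

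Mirg, the microRNA host RNA at the far end of the same chain, had 15 and 5 reads with azacytidine, 1 and 4 with decitabine and none with DMSO, and fell below the filter on low counts. Rtl1, a paternal retrotransposon-derived gene that lies opposite microRNA genes, had 19 reads in azacytidine replicate 1 and none in any other EG7-OVA library. Dlk1, a paternal Notch-family ligand, had at most 2 reads in a library. The Meg3 call with decitabine was lost without either DMSO library, without azacytidine replicate 1 and without decitabine replicate 2 (edgeR adjusted p = 0.0507 to 0.15). The Meg3 window printed above holds 13 CG dinucleotides and that of Rian holds 0.

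Peg3, a paternal zinc finger gene at chr7:6703892-6730431, had no read in DMSO cells and was read in all 4 drug libraries. It had 41 and 64 reads with azacytidine, 16 and 19 with decitabine and none with DMSO. Peg3 was at least 43.6-fold higher with azacytidine (edgeR adjusted p = 0.000294) and at least 12.3-fold higher with decitabine (adjusted p = 0.00193). Its neighbours had few reads. Usp29, a paternal ubiquitin peptidase family gene that starts from the same region on the opposite strand, had 3 and 1 reads with azacytidine, 0 and 1 with decitabine and none with DMSO, and the maternal zinc finger gene Zim1 had 1 read in a decitabine library.

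The remaining calls were small changes in genes already read in DMSO cells. H13, the signal peptide peptidase whose transcript choice depends on the allele, had 178 and 152 CPM with azacytidine, 143 and 189.7 CPM with decitabine and 104 and 93.3 CPM with DMSO. Its log2 fold change was 0.74 ± 0.19 with azacytidine (edgeR adjusted p = 0.0191) and 0.76 ± 0.19 with decitabine (adjusted p = 0.0205), and leaving out single libraries moved these p to at most 0.178 and 0.197. The paternal retrogene Mcts2 lies inside H13 on the same strand, so reads of the pair may be split between them, and Mcts2 did not pass with either drug (adjusted p = 0.295 and 0.174).

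Impact, a paternal gene whose product restrains the stress kinase GCN2, had 127 and 145 CPM with azacytidine, 138 and 173 CPM with decitabine and 111 and 74.9 CPM with DMSO. It passed with decitabine (log2 fold change 0.74 ± 0.21, edgeR adjusted p = 0.0388) and not with azacytidine (0.55 ± 0.21, adjusted p = 0.0981), and the decitabine call was lost in 7 of 13 alternative analyses. Ddc, aromatic amino acid decarboxylase, had 10.5 and 6.14 CPM with azacytidine, 21.5 and 11.9 CPM with decitabine and 7.69 and 5.03 CPM with DMSO. It passed with decitabine (1.39 ± 0.39, adjusted p = 0.037) and not with azacytidine (0.39 ± 0.39, adjusted p = 0.541). The Ddc call was lost without DMSO replicate 2 or decitabine replicate 1 (adjusted p = 0.12 and 0.275).

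Among the members that did not pass, the most abundant were Gnas and Igf2r. Gnas, the stimulatory G protein subunit, had 907 and 759 CPM with azacytidine, 824 and 917 CPM with decitabine and 704 and 637 CPM with DMSO (edgeR adjusted p = 0.246 and 0.182). Igf2r, the maternal receptor that clears IGF2, had 792 and 841 CPM with azacytidine, 760.4 and 1158 CPM with decitabine and 675 and 556 CPM with DMSO (adjusted p = 0.226 and 0.0752). In both genes all 4 drug libraries lay above both DMSO libraries, by a margin that did not pass the threshold. Airn, the paternal antisense RNA that silences Igf2r in cis, had 19.3 and 31.4 CPM with azacytidine, 25.8 and 28.9 CPM with decitabine and 23.3 and 28.2 CPM with DMSO, and the groups overlapped (adjusted p = 0.967 and 0.861).

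Grb10, an adaptor that dampens insulin receptor signalling, varied more within groups than between them. It had 13.1 and 2.44 CPM with azacytidine, 26.5 and 4.48 CPM with decitabine and 2.36 and 41.5 CPM with DMSO, and did not pass (edgeR adjusted p = 0.393 and 0.814). Ube3a, the ubiquitin ligase that is maternal in neurons, had 67.4 and 75.3 CPM with azacytidine, 113 and 59.8 CPM with decitabine and 97.5 and 90.1 CPM with DMSO (adjusted p = 0.322 and 0.808). Blcap had 46.5 and 53.4 CPM with azacytidine, 34.1 and 50.4 CPM with decitabine and 37.2 and 35.8 CPM with DMSO (adjusted p = 0.171 and 0.567). Commd1, a copper metabolism protein, had 15.4 and 13 CPM with azacytidine, 12.3 and 14.0 CPM with decitabine and 13.9 and 20.9 CPM with DMSO (adjusted p = 0.486 and 0.36). Mest, Nap1l5 and Nnat had at most 10.8 CPM in a library and did not pass with either drug.

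The 11 members that were listed and not tested in EG7-OVA cells were Igf2, Mirg, Rtl1, Dlk1, Usp29, Zim1, Snrpn, Ndn, Magel2, Peg12 and Slc38a4. None of them exceeded 19 reads in a library or 25 reads over the 6 libraries. In the Snrpn domain of central chromosome 7, Snrpn had 2 reads in decitabine replicate 2 and none elsewhere. Snurf and Gm38393 overlap Snrpn on the same strand. How shared reads were counted is not given, so the low count does not show that Snrpn was unread. Peg12 had 6 and 7 reads with azacytidine, 0 and 2 with decitabine and 1 and 0 with DMSO, a ratio of 16.2 with azacytidine (exact 95% counting interval 2.43 to 688). At this depth, differences of a few reads were not detectable.

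**Figure D3:**
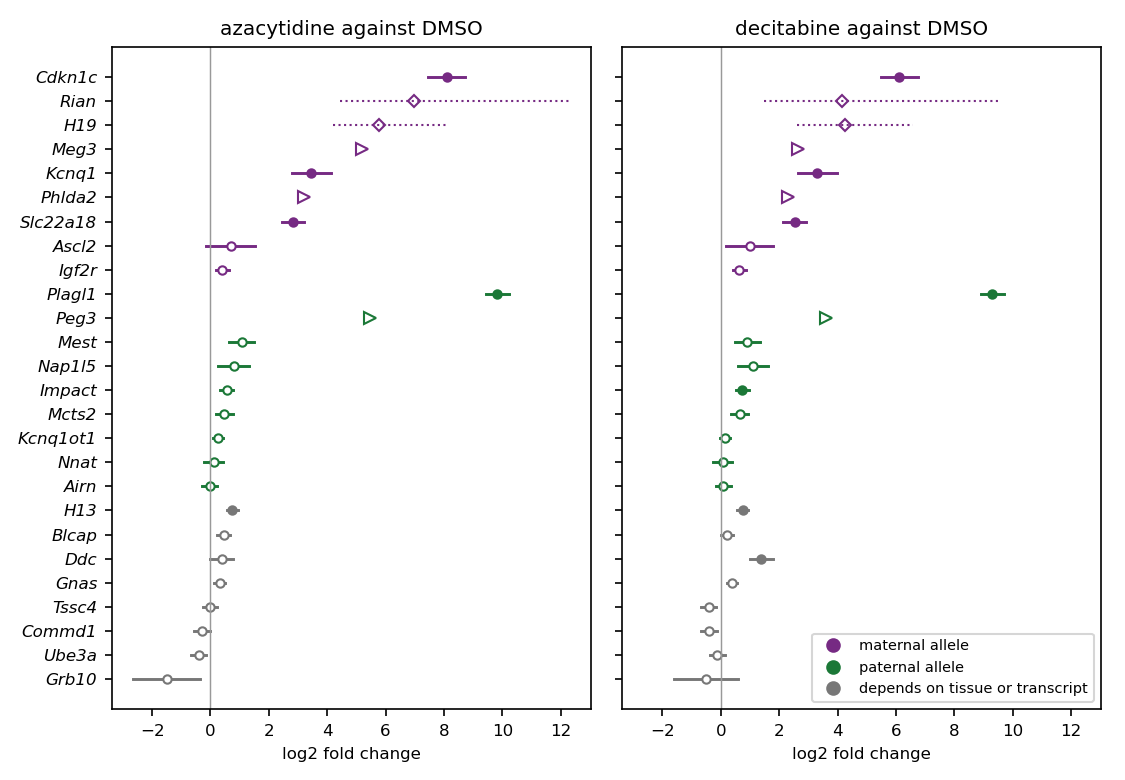
Log2 fold change against DMSO for the 26 members tested, with azacytidine on the left and decitabine on the right, grouped by the allele normally read. Circles are edgeR estimates with SE, filled where the adjusted p was under 0.05, triangles are lower bounds for genes with no DMSO read and diamonds are ratios with exact 95% counting intervals for genes with 1 to 3 DMSO reads; the maternal genes from Cdkn1c to Slc22a18 and the paternal genes Plagl1 and Peg3 lie right of 2, and all others lie between -2 and 2.

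Azacytidine and decitabine were given at different doses, 1.5 and 0.2 µM, so a difference between them is between these treatments and not between the compounds at a matched dose. No member and none of the 19123 genes passed in the direct comparison (0% of genes, edgeR quasi-likelihood test). At an unadjusted p under 0.05 there were 6 members and 1218 genes, and DESeq2 called 1 member, Cdkn1c, and 177 genes. The log2 difference of azacytidine minus decitabine was 1.97 for Cdkn1c (95% interval 1.03 to 2.90, adjusted p = 0.208), 2.80 for Rian (1.10 to 4.50, adjusted p = 0.351), 1.80 for Peg3 (0.73 to 2.88, adjusted p = 0.351) and 2.54 for Meg3 (0.75 to 4.32, adjusted p = 0.51). For Plagl1 it was 0.52 (-0.02 to 1.05, adjusted p = 0.807). The other 2 members under 0.05 before adjustment were H19 at 1.56 and Ddc at -1.0. These 6 members were picked for their p and are given as a description.

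Markers of other cell types did not all sit still in EG7-OVA cells. Summed muscle markers were at 35.8 and 17.3 CPM with azacytidine, 25.7 and 21.5 CPM with decitabine and 5.33 and 9.72 CPM with DMSO. Of the muscle markers 2 of 4 tested were higher with each drug, while the myosins Myh4 and Myh1 were listed at 0 in all 6 libraries. Adipocyte markers summed to at most 2.42 CPM in a library, and the 1 tested was higher with each drug. Neuronal markers summed to 54.0 and 27.5 CPM with azacytidine, 21.2 and 23.4 CPM with decitabine and 5.03 and 5.33 CPM with DMSO. Most of that sum was Tubb3, with means of 35.9 CPM with azacytidine, 18.1 CPM with decitabine and 2.98 CPM with DMSO. Of the neuronal markers 1 of 2 tested was higher with each drug, and Stmn2 was at 0. Macrophage markers summed to 24.1 and 21.2 CPM with azacytidine, 44.6 and 36.4 CPM with decitabine and 7.54 and 10.2 CPM with DMSO, and 4 of 7 tested were higher with each drug. Fibroblast markers summed to 790.0 and 631 CPM with azacytidine, 721 and 776 CPM with decitabine and 559 and 547 CPM with DMSO. Most of that sum was Thy1, which is also on the T cell list. Thy1 had means of 576 CPM with azacytidine, 577.5 CPM with decitabine and 447 CPM with DMSO. Of the fibroblast markers 3 of 6 tested, Col1a1, Col1a2 and Pdgfrb, were higher with each drug. Of the endothelial markers 1 of 3 tested, Tek, was higher with each drug. The DMSO libraries differed from each other in B cell markers, with sums of 4.27 and 49.5 CPM. B cell sums were 25.2 and 13.7 CPM with azacytidine and 31.3 and 22.95 CPM with decitabine, and none of 7 tested passed. Grb10 differed between the DMSO libraries in the same direction. The fibroblast genes Col3a1 and Dcn, the endothelial genes Kdr and Emcn and the macrophage genes C1qa, C1qb and C1qc were at 0 in every EG7-OVA library. The part of these markers in the results above was not tested.

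In the EL4 tumours, P3 libraries had higher levels of Impact, of the antisense RNAs Kcnq1ot1 and Airn, and of Mest, Nap1l5 and Blcap, and lower levels of Gnas, Commd1 and Ddc. Of the 28 members tested 6 were higher in P3 tumours than in P0 tumours and 3 were lower, where 18.8% of the 19993 genes tested were higher and 19.9% were lower (edgeR quasi-likelihood test, adjusted p under 0.05). The higher share of the members is close to that background, and neither share was tested. The higher members were 5 of 13 tested paternal genes, 0 of 7 tested maternal genes and 1 of 8 genes of the tissue-dependent class, and all 3 lower members were of the tissue-dependent class. The median log2 fold change was 0.036 over the members tested and -0.0019 over all genes. In edgeR all 9 calls, and every call over all genes, were lost when either P0 library was left out, and 18 members were called when either P3 library was left out. DESeq2 without P0 replicate 1 called 2 members and 2267 genes and without P0 replicate 2 it called 2 members and 2201 genes, and the members were Impact and Kcnq1ot1 in both fits.

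Impact had the largest log2 fold change among the members that rose. It had 447 and 377 CPM in P3 tumours and 151 and 156 CPM in P0 tumours, from 10106 and 8589 reads in P3 tumours and 3195 and 3932 reads in P0 tumours. The log2 fold change was 1.42 ± 0.12 (SE, 95% interval 1.12 to 1.72, edgeR adjusted p = 0.00179). Per kilobase of exon Impact stood at rank 2 among the members in P3 tumours (80.3 CPM per kb), behind Igf2r, and at rank 3 in P0 tumours (30.0 CPM per kb).

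The 2 antisense non-coding RNAs that silence their domains in cis both rose. Kcnq1ot1 had 731 and 753 CPM in P3 tumours and 376 and 374 CPM in P0 tumours, a log2 fold change of 0.98 ± 0.10 (edgeR adjusted p = 0.00291). Airn had 51.2 and 45.4 CPM in P3 tumours and 32.6 and 32.9 CPM in P0 tumours, a log2 fold change of 0.56 ± 0.11 (adjusted p = 0.0134). In neither gene did the groups overlap. Airn overlaps the more abundant Igf2r on the opposite strand, so its values are uncertain without the strand setting, as are those of Kcnq1ot1 beside Kcnq1. The genes that these RNAs silence did not pass: Igf2r had 815 and 872 CPM in P3 tumours and 837 and 816 CPM in P0 tumours (log2 fold change 0.03, 95% interval -0.26 to 0.32, adjusted p = 0.863), and Cdkn1c had 27 and 13 reads in P3 tumours and 17 and 25 reads in P0 tumours (adjusted p = 0.959). Kcnq1 and Slc22a18 did not pass either, at adjusted p = 0.961 and 0.302.

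Mest, a paternal gene of the alpha/beta hydrolase fold that is active in growing mesodermal tissue, had 19.4 and 12.4 CPM in P3 tumours and 6.72 and 7.04 CPM in P0 tumours. Its log2 fold change was 1.21 ± 0.25 (edgeR adjusted p = 0.0174). Copg2 overlaps the end of Mest on the opposite strand, with means of 36.4 CPM in P3 tumours and 26.7 CPM in P0 tumours. The Mest values are therefore uncertain without the strand setting. Nap1l5, a paternal retrogene of the nucleosome assembly family, had 3.41 and 2.41 CPM in P3 tumours and 1.23 and 1.23 CPM in P0 tumours, a log2 fold change of 1.24 ± 0.32 (adjusted p = 0.0322). Nap1l5 lies inside Herc3 on the opposite strand, and Herc3 moved with it, at 136 and 102 CPM in P3 tumours and 46.9 and 47.2 CPM in P0 tumours (1.34 ± 0.15, adjusted p = 0.00336). With the strand of counting not given, reads of this pair cannot be told apart. DESeq2 did not call Nap1l5 (adjusted p = 0.0667), and nor did edgeR with the replicate block (adjusted p = 0.0678).

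Blcap, which shares a locus with the paternal gene Nnat on the opposite strand, had 36.8 and 39.7 CPM in P3 tumours and 28.3 and 26.2 CPM in P0 tumours, a log2 fold change of 0.49 ± 0.11 (edgeR adjusted p = 0.0209). The Blcap call was lost with the replicate block (adjusted p = 0.0573). Nnat had 18.5 and 14.4 CPM in P3 tumours and 16.9 and 10.9 CPM in P0 tumours and did not pass (adjusted p = 0.485). Among the lower members, Commd1 had 13.3 and 14.9 CPM in P3 tumours and 23.5 and 22.3 CPM in P0 tumours (log2 fold change -0.70 ± 0.14, adjusted p = 0.0143). The paternal retrogene Zrsr1, which lies inside Commd1 on the opposite strand, had 14.7 and 11.5 CPM in P3 tumours and 10.6 and 9.11 CPM in P0 tumours and did not pass (0.41 ± 0.20, adjusted p = 0.152). Without the strand setting the values of Blcap beside Nnat and of Commd1 beside Zrsr1 are uncertain. Gm28048 also overlaps Commd1 on the same strand.

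Ddc fell to 17.8 and 22.2 CPM in P3 tumours, against 32.1 and 32.9 CPM in P0 tumours (log2 fold change -0.70 ± 0.15, edgeR adjusted p = 0.0166). Its neighbour Grb10, at 313 and 328 CPM in P3 tumours and 363 and 355 CPM in P0 tumours, did not pass (adjusted p = 0.221). Gnas had 156 and 176 CPM in P3 tumours and 222 and 206 CPM in P0 tumours, a log2 fold change of -0.37 ± 0.10 (adjusted p = 0.0388). The Gnas call was lost with no filter on low counts and with the replicate block (adjusted p = 0.0568 and 0.0929). Of the other abundant members, H13 had 139.6 and 154 CPM in P3 tumours and 159 and 148 CPM in P0 tumours, Ube3a had 149 and 184 CPM in P3 tumours and 179 and 205 CPM in P0 tumours. Tssc4 had 26.5 and 32.4 CPM in P3 tumours and 36.9 and 36.2 CPM in P0 tumours, and none of these 3 passed.

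**Figure D4:**
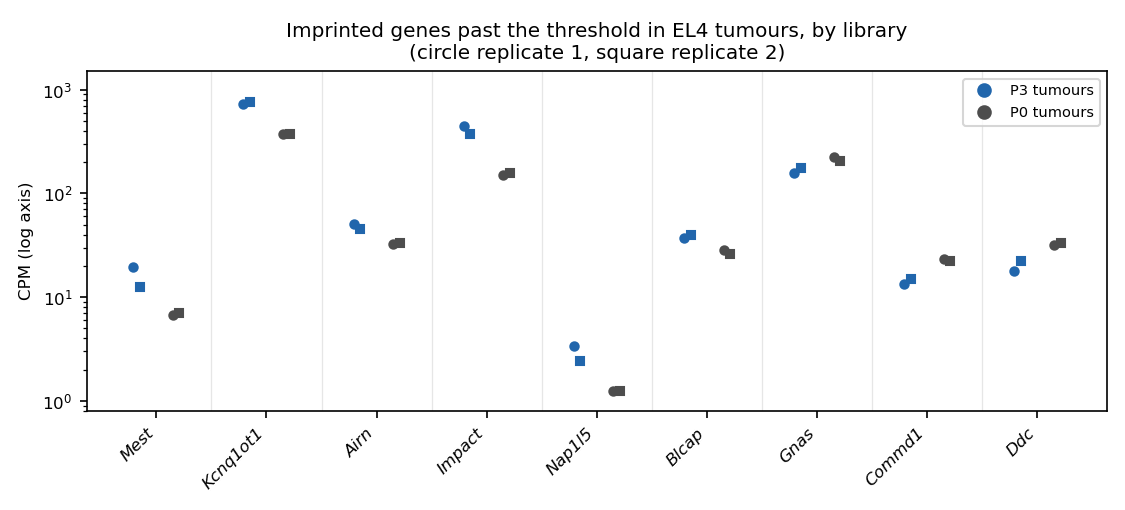
CPM on a log axis in each EL4 tumour library for the 9 members that passed the test, with P3 left of P0 and each point 1 library. In Mest, Kcnq1ot1, Airn, Impact, Nap1l5 and Blcap both P3 libraries lie above both P0 libraries, and in Gnas, Commd1 and Ddc they lie below.

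Several low members differed widely between the 2 P3 libraries of the tumours. H19 had 296 and 6 reads in P3 tumours and 72 and 35 reads in P0 tumours. Peg3 had 360 and 23 reads in P3 tumours and 81 and 91 reads in P0 tumours. Slc38a4, a paternal amino acid transporter gene, had 57 and 0 reads in P3 tumours and 17 and 20 reads in P0 tumours. In each of these P3 replicate 1 was above both P0 libraries and P3 replicate 2 was below both, and none of the 3 passed the test (edgeR adjusted p = 0.421, 0.407 and 0.718). Zim1 had 38 and 2 reads in P3 tumours and 2 and 3 in P0 tumours, and Meg3 had 83 and 15 reads in P3 tumours and 45 and 52 in P0 tumours. Igf2 had 16 and 0 reads in P3 tumours and 9 and 8 in P0 tumours. Rian, Rtl1, Ndn and Plagl1, described below, also had more reads in P3 replicate 1. Some other low members were alike in the P3 libraries or ran the other way. Slc22a18 had 28 and 51 reads in P3 tumours and 21 and 33 in P0 tumours, Kcnq1 had 9 and 15 in P3 tumours and 11 and 14 in P0 tumours, and Mcts2 had 15 and 15 in P3 tumours and 9 and 8 in P0 tumours.

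P3 replicate 1 also stood apart in muscle markers. The 10 muscle markers summed to 617 and 4.39 CPM in P3 tumours and 24.0 and 23.3 CPM in P0 tumours, with all 10 detected in P3 replicate 1 and 4 detected in P3 replicate 2. None of the 6 tested passed between the groups. Myh4, Acta1 and Myh1 had the largest P3 means, 115, 84.8 and 42.55 CPM. Mylpf had means of 0.352 CPM in P3 tumours and 0.415 CPM in P0 tumours. Without P3 replicate 1 the log2 fold changes of H19, Meg3 and Peg3 turned round to -3.13, -1.65 and -1.86, and Slc38a4 was then listed at 0 reads in the remaining P3 library. Markers of other cell types also differed between the groups. All 8 B cell markers were lower in P3 tumours, with sums of 64.0 and 69.2 CPM in P3 tumours and 279.7 and 470.5 CPM in P0 tumours. Of the neutrophil markers 3 of 5 tested were higher in P3 tumours, with sums of 14.3 and 59.2 CPM in P3 tumours and 3.50 and 4.26 CPM in P0 tumours. Macrophage markers summed to 355 and 342 CPM in P3 tumours and 1366 and 1691 CPM in P0 tumours, and all 10 were lower. Neuronal markers summed to 1.86 and 1.01 CPM in P3 tumours and 21.7 and 23.9 CPM in P0 tumours. Most of the P0 sum was Tubb3, with a mean of 20.0 CPM, and 2 of 3 neuronal markers tested were lower. Of the 6 adipocyte markers tested 2 were lower and 4 did not pass, and none of the 8 endothelial markers passed. Fibroblast markers summed to 2362 and 1666 CPM in P3 tumours and 4263 and 4198 CPM in P0 tumours. Of the 12 fibroblast markers tested 6 were lower, 5 did not pass and 1, Pdgfrb, was higher. Pdgfrb had means of 713 CPM in P3 tumours and 327 CPM in P0 tumours, while Col1a1 had 145 and 760 CPM. Much of the P3 sum was Pdgfrb and Thy1, and Thy1 is also on the T cell list. The part of these markers in the imprinted gene results was not tested.

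Of the other low members, Rian had 40 and 7 reads in P3 tumours and 80 and 92 reads in P0 tumours, and both P3 libraries were lower (log2 fold change -1.84 ± 0.70, edgeR adjusted p = 0.0856). Ndn, a paternal MAGE family gene, had 12 and 1 reads in P3 tumours and 20 and 27 reads in P0 tumours (adjusted p = 0.128). Rtl1 had 32 and 4 reads in P3 tumours and 15 and 54 reads in P0 tumours (adjusted p = 0.489). Plagl1 had 17 and 2 reads in P3 tumours and 31 and 16 reads in P0 tumours (adjusted p = 0.276). The 10 members not tested in the tumours had at most 38 reads in a library, and Snrpn had none in any. The Snrpn count carries the uncertainty from overlapping genes given for EG7-OVA cells.

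**Figure D5:**
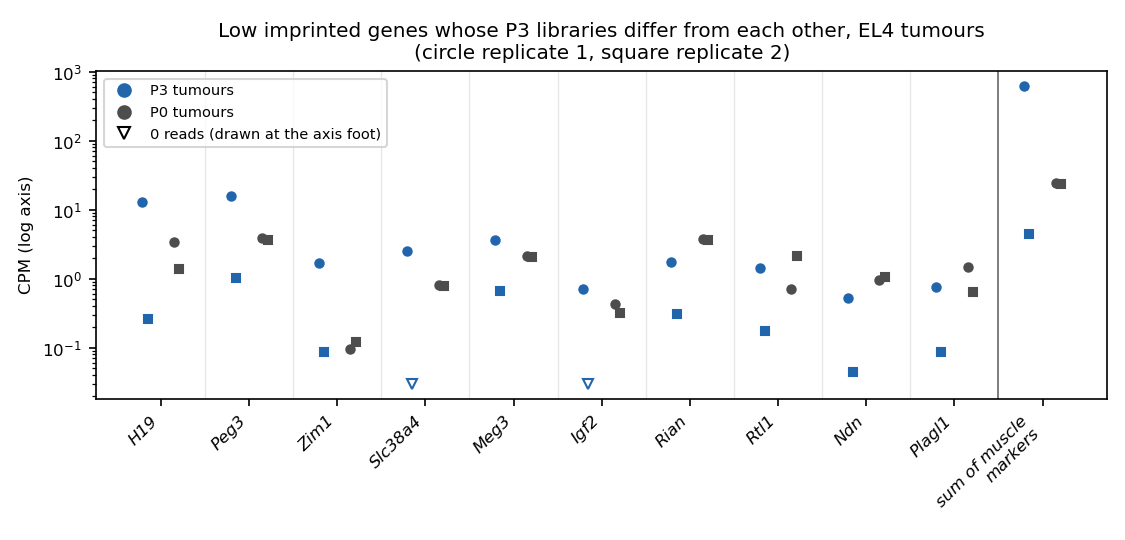
CPM on a log axis in each EL4 tumour library for 10 low members, chosen after their values were seen because their P3 libraries differ, and the summed muscle markers on the right, with P3 left of P0 and open triangles at the foot for 0 reads. P3 replicate 1 is a circle and P3 replicate 2 a square, and the order of the 2 in these genes follows from the choice. The muscle markers, not used in the choice, summed to 617 CPM in P3 replicate 1 and 4.39 CPM in P3 replicate 2.

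Levels per kilobase of exon, each set scaled on its own, placed Igf2r on top in both sets. Igf2r ranked 1 among the members in all 5 groups, with 103 CPM per kb in decitabine-treated cells and 66.2 CPM per kb in DMSO cells. Gnas ranked 2 in every EG7-OVA group and 5 or 6 in the tumours, where Grb10 ranked 2 or 3. Grb10 ranked between 13 and 18 in the EG7-OVA groups. With azacytidine, Cdkn1c at 20.9 CPM per kb stood beside Tssc4 at 20.9 CPM per kb, although it had 0.0735 CPM per kb in DMSO cells. Neighbours in these orders were not tested against each other.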

How the data were processed

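RNA extracted with Trizol was sequenced, per the labels' protocols. The EL4 table holds raw counts per gene as deposited by the authors. The EG7 table holds estimated counts as deposited by the authors, of which 145 values in 62 entries were not whole and were rounded. The submitters' processing notes name fastp, Trim Galore, STAR and featureCounts and the builds mm10 and GRCh38. The sources used here do not give tool versions, strand setting or annotation. The NKYS libraries were not used here.

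Each table was fitted on its own in edgeR 4.0.16 under R 4.3.3 (filterByExpr, TMM, 1 mean per group, glmQLFTest, two-sided), with Benjamini-Hochberg adjustment over all genes tested and a threshold of 0.05. The script was tested on simulated counts. SE is the log2 fold change over the root of F. Bounds took a floor of 3 reads over the group, intervals on ratios are exact 95%, and both cover counting error only. edgeR estimated a common biological coefficient of variation of 0.188 for EL4 and 0.244 for EG7-OVA libraries. The DMSO libraries are numbered as in the deposited columns, since titles and library names number them differently. DESeq2 1.42.0, no filter or a filter at a mean of 1 CPM, median-of-ratios size factors, only the 4 libraries compared, a replicate block and leaving out each library were the alternatives.

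Members passing in a comparison or averaging at least 10 CPM in a group are given by library. Gene positions came from GENCODE vM21 (mm10). The members and lists were chosen with earlier results of these data known.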

Additional observations from a re-analysis of the deposited data

How the results depend on the processing

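In EL4 tumours the edgeR counts of calls rested on the P0 pair. Leaving out each library in turn gave 0 to 18 members and 0 to 11286 genes called, with 0 of both without either P0 library. DESeq2 without P0 replicate 1 called 2 members and 2267 genes, and without P0 replicate 2 it called 2 members and 2201 genes, Impact and Kcnq1ot1 being the members in each case, a pair of fits chosen after seeing the data. A group left with 1 library was assumed to vary like the others. Without P3 replicate 1 the log2 fold changes of H19, Meg3, Peg3 and Slc38a4 reversed to -3.13, -1.65, -1.86 and -7.21, from 1.48, 0.04, 1.18 and 0.65, and without P3 replicate 2 they were 2.46, 0.80, 2.09 and 1.64. The negative value for Slc38a4 depends on the prior count since the remaining P3 library had 0 reads. The cause was not tested.

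Leaving out single EG7-OVA libraries gave 8 to 11 members and 1675 to 3897 genes with azacytidine, 6 to 10 members and 1520 to 3290 genes with decitabine, and 0 to 1 members and 0 to 88 genes between the drugs. Between the drugs DESeq2 called 1 member and 177 genes, and no filter on low counts gave 4 members and 378 genes, Cdkn1c being called in both. Plagl1, Cdkn1c, Peg3, Kcnq1 and Slc22a18 with both drugs, and H19, Meg3 and Rian with azacytidine, kept their call in every alternative that tested them. No member called in EG7-OVA cells changed sign. Grb10, not called otherwise, was lower with azacytidine with no filter on low counts (-1.49) and with the crossed block (-1.01).

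With the replicate block 6 members and 5490 genes were called in EL4 tumours, 10 and 3609 with azacytidine, 9 and 2954 with decitabine and 0 and 0 between the drugs. Same-numbered libraries deviated from their group means with r = -0.037 between P3 and P0, -0.26 between azacytidine and DMSO, -0.19 between decitabine and DMSO and 0.27 between the drugs, so the numbers were not taken as pairs. With the DMSO numbers crossed, an alternative chosen after seeing the data, 12 members and 4576 genes, 13 and 3922, and 1 and 167 were called in the 3 EG7-OVA comparisons.

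Groups of 2 libraries, low counts and unknown strand limit these results.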

Other observations

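Other imprinted genes and genes that maintain imprints were looked up from lists beside the members. Of 24 other imprinted genes tested in EG7-OVA cells 5 were higher and 3 lower with azacytidine, and 5 were higher and 1 lower with decitabine. Over all genes tested 13.6% were higher and 6.7% lower with azacytidine, and 12.4% were higher and 4.3% lower with decitabine. Snhg14, the paternal host RNA of the Snrpn domain that runs opposite Ube3a, had 60.7 and 65.2 CPM with azacytidine, 18.7 and 36.5 CPM with decitabine and 3.17 and 2.49 CPM with DMSO. Its log2 fold change was 4.47 ± 0.34 (edgeR adjusted p = 3.8e-05) with azacytidine and 3.28 ± 0.33 (adjusted p = 0.00021) with decitabine, in libraries where Snrpn had at most 2 reads and Ube3a did not pass. Without the strand setting, reads of Snhg14 and Ube3a cannot be told apart where they overlap. The Snrpn counts are uncertain because other genes overlap Snrpn on the same strand. Gab1, an adaptor of receptor signalling imprinted in placenta, had no DMSO read and was at least 74.7-fold higher with azacytidine and at least 28.8-fold higher with decitabine (adjusted p = 0.000155 and 0.000523). Th, tyrosine hydroxylase at the edge of the Kcnq1 domain, had 1 read over the DMSO group and a ratio of 123 with azacytidine (exact 95% counting interval 21.6 to 4920.0) and 74.8 with decitabine (13 to 3000.0). Slc22a3, a cation transporter of the Igf2r domain, fell to 58.9 and 73.2 CPM with azacytidine, against 183 and 185 CPM with DMSO (-1.48 ± 0.19, adjusted p = 0.000555).

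Of 25 imprint maintenance genes tested, 2 were higher and 2 lower with azacytidine, and 4 were higher and 4 lower with decitabine. The same shares of all genes, 13.6% and 6.7% with azacytidine and 12.4% and 4.3% with decitabine, are the background, and the higher count with azacytidine is below it. Dnmt3a, a de novo methyltransferase, rose with both drugs (log2 fold change 0.94 ± 0.19 and 0.80 ± 0.19, edgeR adjusted p = 0.00645 and 0.0162). Dnmt1 fell with decitabine to 344 and 372 CPM, against 637 and 585 CPM with DMSO (-0.77 ± 0.16, adjusted p = 0.00988). Tet1, a methylcytosine dioxygenase, had 12.9 and 7.81 CPM with decitabine and 1.66 and 3.39 CPM with DMSO (2.03 ± 0.44, adjusted p = 0.011).

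In EL4 tumours 4 of 24 other imprinted genes were higher and 2 lower in P3, and 5 of 24 imprint maintenance genes were higher and 7 lower. Over all genes 18.8% were higher and 19.9% lower, so the higher counts of both lists are near the background. Zfp57, the zinc finger protein that keeps methylation at imprints, had 15.2 and 8.12 CPM in P3 tumours and 0.521 and 0.915 CPM in P0 tumours (log2 fold change 3.99 ± 0.45, edgeR adjusted p = 0.0034). Arid4b, a chromatin protein of imprint control, had 609 and 430.1 CPM in P3 tumours and 62.9 and 64.5 CPM in P0 tumours (3.03 ± 0.19, adjusted p = 0.000933). Htr2a, a serotonin receptor gene, had 11.3 and 9.87 CPM in P3 tumours and 0.331 and 0.318 CPM in P0 tumours (5.01 ± 0.28, adjusted p = 0.00074). edgeR called no gene in these tumours when either P0 library was left out, while DESeq2 called 2267 genes without P0 replicate 1 and 2201 without P0 replicate 2.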
